A study of Zea mays with 10 samples.

Results

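The gene ss2 (LOC542247 in the reference gene table, with sus1 as GeneID:542247's other listed symbol) codes for a sucrose synthase of maize and was followed across 10 libraries of nuclear RNA from root tips of the inbred line B73. It is 1 of 48174 genes in the deposited table, and it was chosen by its identifier for its level, its rank in each library and the ratio of its levels between the 2 groups. Those values are therefore given as a description with no test. Seedlings of 3 days after germination had been kept for 1 h in water and then for 1 h in 175 uM 5-ethynyl uridine (EU), a uridine analog that cells build into the RNA they make while it is present. In 5 libraries, called EU nascent, EU-labelled RNA was captured from the nuclear RNA with biotin and streptavidin. In the other 5, called nuclear, total nuclear RNA of tissue labelled with EU in the same way was sequenced with no capture. Nuclei of both groups came from the last 1 mm of the primary and the seminal roots, which holds the meristem. Both groups carried the EU, so neither is an unlabelled control, and a capture from unlabelled tissue was not analysed here. The study set transcriptional activity measured by labelling beside that read from total nuclear RNA.

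Sucrose synthase joins UDP to the glucose part of sucrose and releases fructose, in a reaction that can run both ways. It is one of the 2 routes by which plant sink tissues split the sucrose that reaches them through the phloem, the other being invertase. The UDP-glucose it makes feeds cellulose and callose of the cell wall and, by further steps, starch and respiration. Maize has several such genes, of which sh1 is named for the shrunken kernels of its mutants, and both sh1 and sus1 are known to be expressed in maize roots. Low oxygen and sugar supply are known to alter their transcripts in maize roots.

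The libraries held 2391209 to 5770915 assigned counts in EU nascent and 1323450 to 20397606 in nuclear. Levels are CPM, a gene's counts in proportion to the library total, scaled by the trimmed mean of M-values (TMM), which sets the bulk of genes equal between libraries, so every change is relative to that bulk. In bulk RNA, fewer cells of a type and less RNA per cell cannot be told apart. Of 10 root meristem and cell division markers found in the table, 7 reached a mean of 1 CPM, with a summed level of 236 to 286 CPM in EU nascent and 196 to 237 CPM in nuclear, while plt1, plt2 and rtcs1 were at 0 in every library. The leaf markers ssu1, cab1, rca1 and pep1 had at most 3 counts in either group, and mdh6 had 19 counts in EU nascent and 30 in nuclear. Another 2 genes of the leaf list were detected in every library, ppdk1 with a mean of 649 CPM in EU nascent and 446 CPM in nuclear, and me3 with 42.0 CPM in EU nascent and 29.3 CPM in nuclear. The 4 endosperm marker genes summed to at most 0.176 CPM in EU nascent and 0.234 CPM in nuclear. Markers were matched by symbol or synonym alone, so plt1 and plt2 may not be the meristem genes meant, and their level of 0 is not read further. Marker levels are on library totals.

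In EU nascent, ss2 stood at 2499.5, 3526, 3489, 3251 and 3485 CPM in replicates 1 to 5. In nuclear it stood at 1691, 2525, 2125, 2081 and 2208 CPM. Thus 4 of the 5 EU nascent libraries lay above every nuclear library, and EU nascent replicate 1 lay just under nuclear replicate 2. The mean was 3249.9 ± 433 CPM in EU nascent and 2126 ± 299 CPM in nuclear (SD, n = 5 each). The log2 fold change of EU nascent over nuclear was 0.61 ± 0.10 (SE of the edgeR fit over all genes), or 1.53-fold. Libraries with the same replicate number deviated together across genes, so the ratio can also be read within each number. It was 1.48, 1.40, 1.64, 1.56 and 1.58 for numbers 1 to 5, above 1 in 5 of 5, with log2 ratios of 0.48 to 0.72. The spread of the log2 ratio over numbers was 0.091 (SD), and the lowest ratio was that of number 2, whose nuclear level was the highest of its group.

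**Figure D1:**
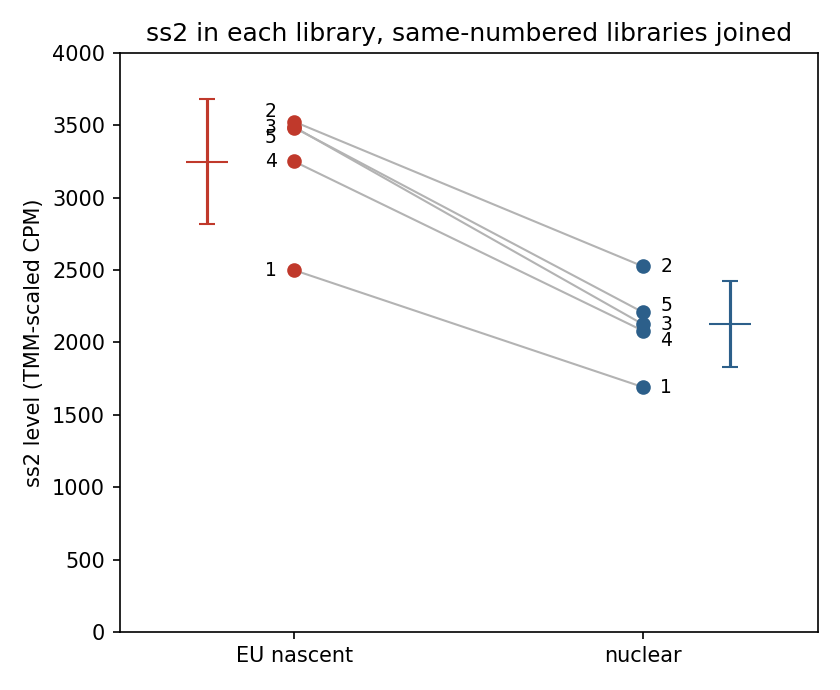
Level of ss2 in TMM-scaled CPM in each library, EU nascent at left and nuclear at right. Grey lines join libraries with the same replicate number, printed beside the points, and bars give mean and SD (n = 5 each). All 5 lines fall towards nuclear, and replicate 1 is the lowest of both groups, at 2499.5 CPM in EU nascent and 1691 CPM in nuclear.

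Replicate 1 was the lowest library of its group in both groups. Without replicate 1, ss2 averaged 3437 ± 126 CPM in EU nascent and 2235 ± 201 CPM in nuclear (SD, n = 4 each), and the groups then did not overlap. How many of all genes separate without replicate 1 was not counted. A fit without replicate 1 in both groups, added after the data were seen, gave a log2 fold change of 0.62 ± 0.07 (SE). Leaving out EU nascent replicate 1 alone gave 0.70, and leaving out nuclear replicate 1 alone gave 0.54, the 2 ends of the range over single libraries left out. The count behind ss2 was large in every library, from 6158 to 21426 reads in EU nascent and from 2079 to 39807 in nuclear. For scale, counting error alone would give a coefficient of variation of 0.683% to 1.27% in EU nascent and 0.501% to 2.19% in nuclear. The observed coefficient of variation between libraries was 13.3% in EU nascent and 14.1% in nuclear.

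As a share of all assigned counts, with no scaling between libraries, ss2 took 0.258%, 0.371%, 0.373%, 0.345% and 0.369% of EU nascent replicates 1 to 5. It took 0.157%, 0.236%, 0.201%, 0.195% and 0.207% of nuclear replicates 1 to 5. On this scale the groups did not overlap, whereas on the TMM scale they did by 1 library. How many of all genes separate on this scale was not counted. On the TMM scale 11.2% of tested genes did so as higher in EU nascent. The lowest EU nascent share had a 95% exact binomial interval of 0.251% to 0.264%, and the highest nuclear share one of 0.232% to 0.240%. These intervals cover counting error only. On average 1 read in 268 to 388 was from ss2 in EU nascent, and 1 in 424 to 637 in nuclear. With library totals alone in place of TMM, the log2 fold change of ss2 was 0.79, a rise shared by the bulk of genes, since the median of all tested genes moved by a like amount, to 0.19 from 0.02. Relative to that median ss2 was higher by 0.60 under library totals and by 0.59 under TMM.

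By read count, ss2 ranked 5th, 4th, 4th, 4th and 4th of all genes in EU nascent replicates 1 to 5. In nuclear replicates 1 to 5 it ranked 17th, 8th, 11th, 9th and 10th. Among protein-coding genes it ranked 2nd in all 5 EU nascent libraries and between 3rd and 5th in the nuclear ones. Ranks are of reads per gene and were not divided by transcript length, because no lengths of the build used for counting were at hand, so they do not order the genes by number of molecules.

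**Figure D2:**
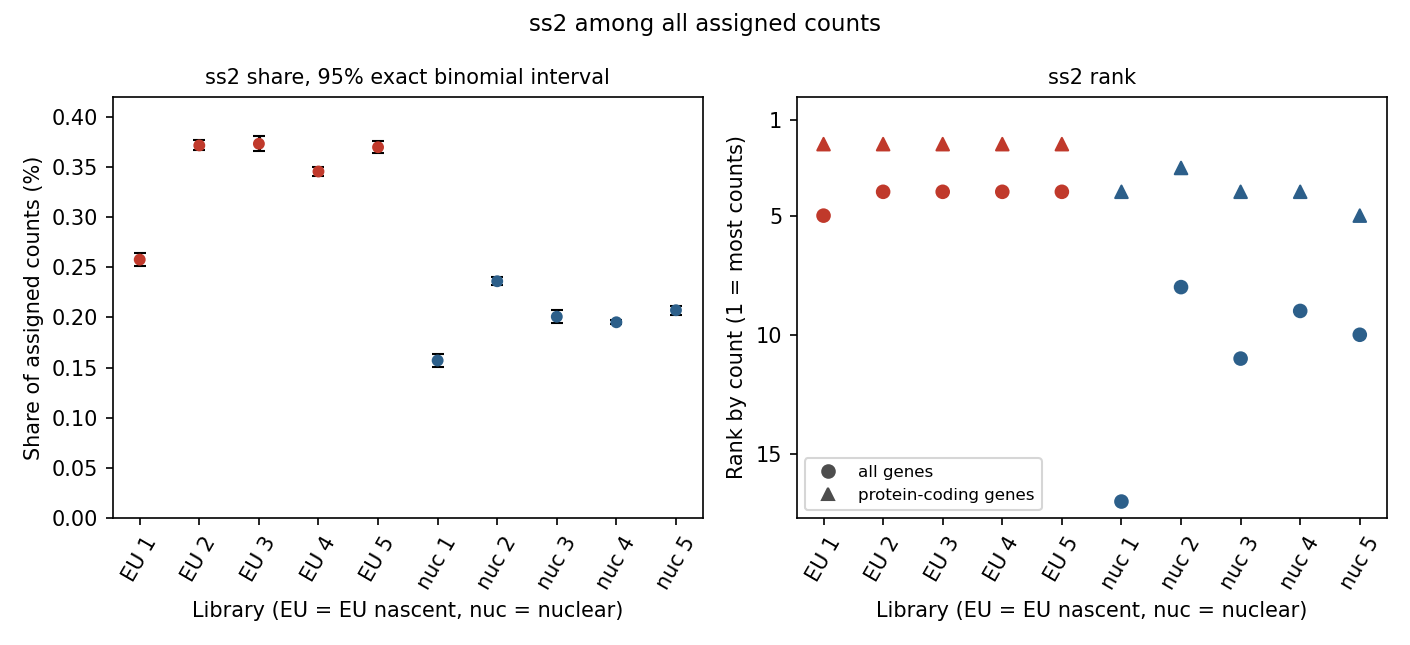
Share of assigned counts taken by ss2 in each library, with 95% exact binomial intervals for counting error (left), and rank of ss2 by count among all genes (circles) and protein-coding genes (triangles), with rank 1 at the top (right). EU nascent is red and nuclear is blue. The EU nascent shares run from 0.258% to 0.373% and the nuclear shares from 0.157% to 0.236%, and the nuclear ranks among all genes run from 8 to 17, against 4 and 5 in EU nascent.

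In all, 18 genes outranked ss2 in at least 1 library. Of these 18, 17 were lower in EU nascent by the quasi-likelihood test of edgeR, with p-values adjusted by Benjamini and Hochberg's method. Of all 21048 tested genes, 40.9% passed that test, 21.1% as lower and 19.8% as higher. The 18 were chosen by the ranks of ss2, and most entered only through nuclear libraries, where they were high. Being lower in EU nascent thus follows largely from that choice, and the count of 17 is a description and no test. In every EU nascent library 3 genes stood above ss2: the long noncoding RNA genes LOC100384100 and LOC109941443, and bZIP108, whose name is that of a basic leucine zipper protein. In every nuclear library 7 genes did, and of these LOC103630547, LOC103635813 (both long noncoding RNA genes) and the glycine-rich protein gene grp1 were above ss2 in no EU nascent library. The small nucleolar RNA gene LOC111590387 outranked ss2 in all 5 nuclear libraries and in EU nascent replicate 1 only, which is what put ss2 5th there.

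All 18 genes had fractional counts in at least 1 library, a mark of reads that the authors' counting appears to have divided between genes. The counts of ss2 were whole in all 10 libraries (within 1e-06). Among the 40285 genes whose counts were whole in every library, a set added after the data were seen that leaves out all 18 and so has ss2 first by construction, the gene next below ss2 had fewer reads by a factor of 2.42 to 3.73 in EU nascent and of 1.02 to 1.62 in nuclear. No gene overlapped ss2 in the reference gene list.

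Just under ss2 in mean EU nascent level came LOC103630547, with 1908 ± 131 CPM in EU nascent and 4421 ± 284 CPM in nuclear, and LOC103635813, with 1724 ± 113 CPM in EU nascent and 3281 ± 339 CPM in nuclear (SD, n = 5 each). The protein-coding gene LOC103645927 followed with 1719 ± 306 CPM in EU nascent and 1665 ± 338 CPM in nuclear, and its log2 fold change of 0.05 ± 0.14 (SE) did not pass (edgeR adjusted p = 0.815) and took either sign when single libraries were left out. The other genes with a mean of at least 500 CPM number 80. That mean was taken over both groups, so a gene can reach it through the group where it is high, and no count of calls among the 80 is read against ss2. The 2 of them whose log2 fold change reached that of ss2 were sh1 and the protein-coding gene LOC100281186. The sucrose synthase gene sh1 had 0.72 ± 0.12 (SE), and LOC100281186 had 0.66 ± 0.10. Over all 21048 tested genes, 1780, or 8.46%, had a log2 fold change at or above that of ss2.

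**Figure D3:**
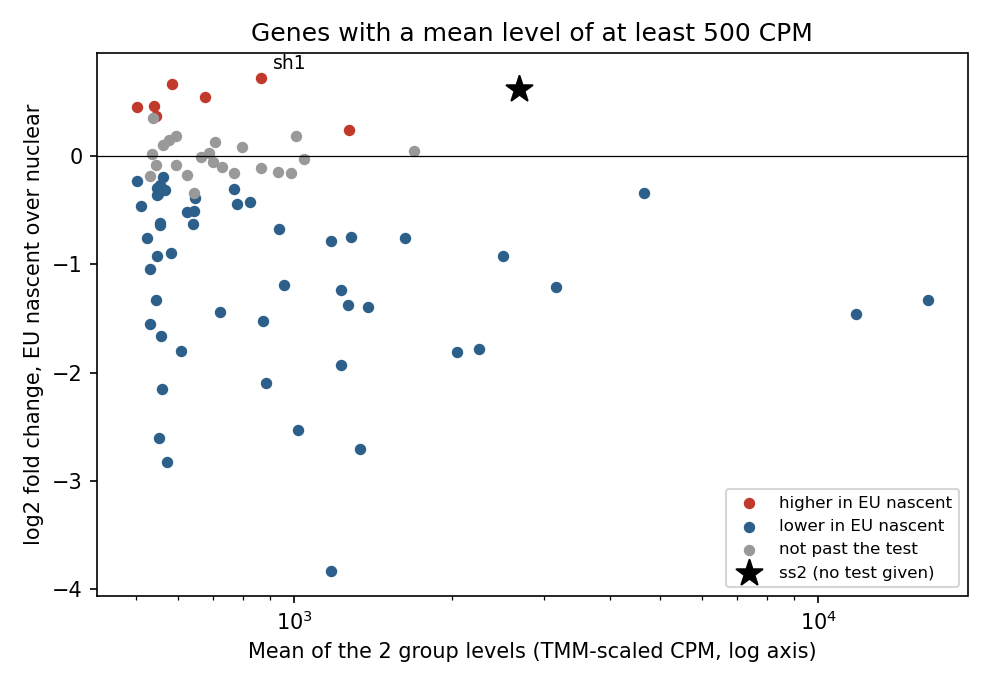
Log2 fold change of EU nascent over nuclear against mean level (TMM-scaled CPM, log axis) for ss2 (star) and the 80 other genes with a mean of at least 500 CPM. Red points were higher and blue points lower by edgeR's test, and grey points did not pass. Genes were chosen on the mean of both groups, so some reach 500 CPM only through the group where they are high. The gene sh1 is labelled, at 0.72 beside 0.61 for ss2.

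The sucrose synthase genes found by name besides ss2 were sh1 and sus2, and both were higher in EU nascent. The symbol ss1 was also matched, but it is in use for a starch synthase, so that gene (0.20 ± 0.15, SE, edgeR adjusted p = 0.295) was left out of the family after the table was seen. In EU nascent replicates 1 to 5, sh1 had 816, 1036, 1219, 1092 and 1216 CPM. In nuclear replicates 1 to 5 it had 477, 705, 701, 645 and 733 CPM. The groups did not overlap for sh1, as for 11.2% of tested genes in this direction, and its log2 fold change was 0.72 ± 0.12 (SE, n = 5 each, edgeR adjusted p = 9.06e-05). It was higher in 5 of 5 same-numbered pairs, by log2 ratios of 0.55 to 0.80. Like ss2, sh1 was lowest in replicate 1 of each group. The third gene, sus2, was near the low end of detection, with 5.66 to 10.8 CPM in EU nascent (24 to 51 counts) and 3.11 to 4.91 CPM in nuclear (4 to 93.5 counts). Its groups did not overlap either, and its log2 fold change was 1.02 ± 0.22 (SE, edgeR adjusted p = 0.00121), higher in 5 of 5 pairs. Fractional counts occurred at sh1 and sus2 in at least 1 library, so part of their reads may be shared with other genes, while ss2 had none.

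**Figure D4:**
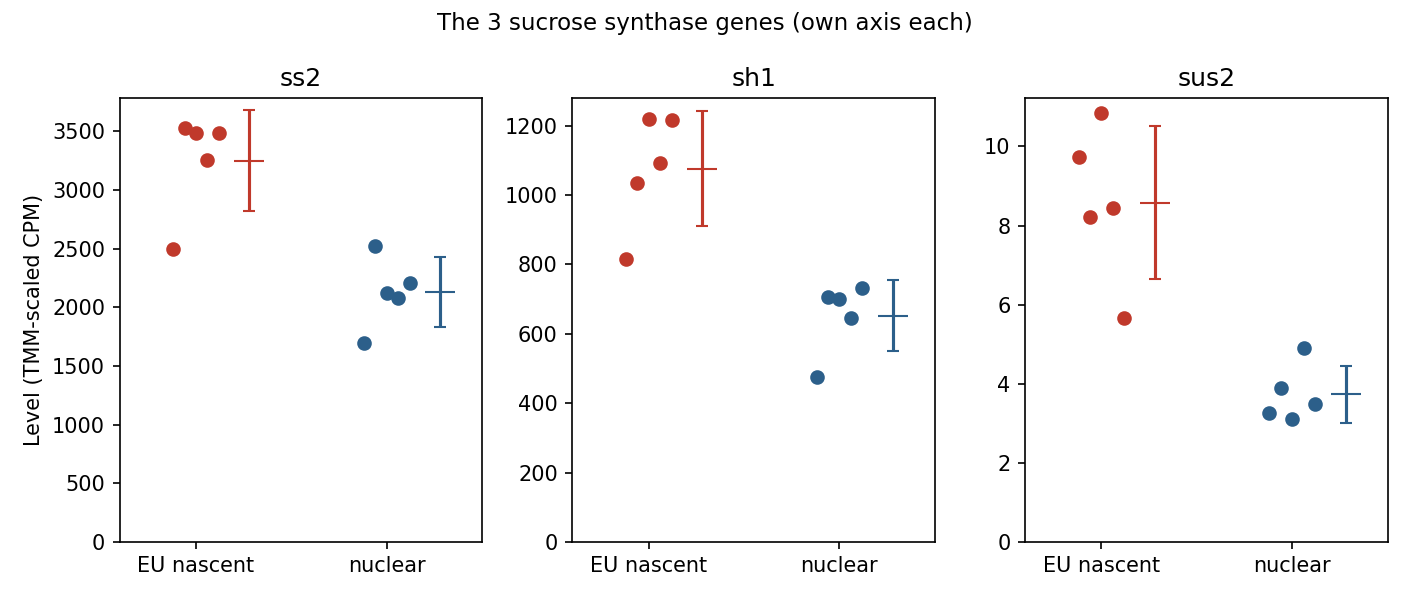
Levels of ss2, sh1 and sus2 in TMM-scaled CPM, each panel with its own axis from 0. Points are the 5 libraries of each group, with EU nascent in red at left and nuclear in blue at right, and bars give mean and SD. EU nascent lies above nuclear in all 3 panels, with an overlap of 1 library for ss2 and none for sh1 or sus2.

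Among the 3 sucrose synthase genes found by name, the reads of ss2 were the larger part in every library. Of the reads of the 3 genes, ss2 took 73.9% to 77.2% in EU nascent and 75.0% to 78.1% in nuclear, so its part differed by less than its range between libraries. For each read of sh1 there were 3.06, 3.40, 2.86, 2.98 and 2.87 reads of ss2 in EU nascent replicates 1 to 5. There were 3.55, 3.58, 3.03, 3.23 and 3.01 in nuclear replicates 1 to 5. This ratio needs no scaling between libraries. It was lower in EU nascent within each of the 5 numbers, and the groups overlapped. Together the 3 genes took 0.343% to 0.504% of assigned counts in EU nascent and 0.202% to 0.302% in nuclear.

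The other genes of sucrose use were set beside ss2. Across 8 lists matched by symbol, with ss2 left out, 59 genes were in the table and 48 had enough counts to be tested. Of the 48, 7 were higher (14.6%, against 19.8% of all tested genes) and 8 lower (16.7%, against 21.1%), and 33 did not pass. Their median log2 fold change was -0.02. With library totals alone the same lists had 15 higher and 5 lower, and blocking on the replicate number gave 9 higher and 14 lower. Of the 48, 2 reached the log2 fold change of ss2, as did 8.46% of all tested genes, and these were its relatives sh1 and sus2.

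For splitting sucrose the alternative enzyme is invertase, and 0 of 3 tested invertase genes passed in either direction. Of all tested genes, 40.9% passed. The cell wall invertase gene incw1, the most abundant by reads, had 108 ± 2.91 CPM in EU nascent and 103 ± 15.3 CPM in nuclear (log2 fold change 0.05 ± 0.09, SE), and passed as higher with library totals alone (0.22, edgeR adjusted p = 0.0465). The invertase gene IVR1 had 0.20 ± 0.20. Of the genes listed for later steps of hexose use, the fructokinase gene frk1 was higher by 0.35 ± 0.08 (edgeR adjusted p = 0.00232). The phosphohexose isomerase gene phi1 had 0.25 ± 0.13, which did not pass (edgeR adjusted p = 0.143) and passed when blocked on the replicate number (adjusted p = 0.000961), without EU nascent replicate 1 (0.36, adjusted p = 0.00635), without replicate 1 in both groups (0.26, adjusted p = 0.00824) and with library totals alone (0.42, adjusted p = 0.0155). The hexokinase gene hex2 had -0.03 ± 0.09. Of the cellulose synthase genes, which use UDP-glucose, 4 of 9 tested were lower and 0 higher. These shares were 44.4% and 0%, against 21.1% and 19.8% of all tested genes. CesA-1 had -0.60 ± 0.08 (edgeR adjusted p = 1.73e-05). The most abundant, CesA-8, had 0.02 ± 0.07, and it passed as higher with library totals alone (0.20, edgeR adjusted p = 0.0278).

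Sucrose synthesis, transport and starch genes were mixed. The sucrose phosphatase genes spp1 and SPP2 had -0.02 ± 0.13 and -0.30 ± 0.13 and did not pass, except SPP2 with the replicate block (edgeR adjusted p = 0.0422). The sucrose transporter gene sut4 was higher by 0.42 ± 0.12 (edgeR adjusted p = 0.0096), but it did not pass without nuclear replicate 4 (adjusted p = 0.0507). The transporter gene sut2 was lower, with -0.21 ± 0.07 (edgeR adjusted p = 0.0262), but it did not pass when EU nascent replicate 4 or 5, or nuclear replicate 2, 4 or 5, was left out (adjusted p = 0.0586 to 0.0811), with no filter on low counts (adjusted p = 0.0529) or with library totals alone (-0.040, adjusted p = 0.678). Of 13 tested starch genes, 2 were higher (15.4%, against 19.8% of all tested genes) and 0 lower (against 21.1%). Higher were AGPLS3, of ADP-glucose pyrophosphorylase, by 0.38 ± 0.10, and the branching enzyme gene sbe3 by 0.42 ± 0.15 (edgeR adjusted p = 0.0269). The gene sbe3 did not pass when EU nascent replicate 2 or nuclear replicate 4 or 5 was left out (adjusted p = 0.0611 to 0.109). The lowest, sh2, also of ADP-glucose pyrophosphorylase, had -0.26 ± 0.10 (edgeR adjusted p = 0.0553). It passed with the replicate block (adjusted p = 0.0293), with limma-voom (0.0307) and without EU nascent replicate 3 or nuclear replicate 1 or 5 (0.0357 to 0.0474).

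A list of genes matched by symbol around the low-oxygen response of maize, of which sh1 is also part, was set beside ss2. The match does not show that every listed gene answers low oxygen, so the counts below describe the list only. Seedlings of both groups had been held in water alike, so a response to it was not tested by this comparison. Of 13 tested, 1 was higher in EU nascent (7.69%, against 19.8% of all tested genes) and 3 lower (23.1%, against 21.1%). The alcohol dehydrogenase gene adh1 had 935 ± 191 CPM in EU nascent and 1041 ± 189 CPM in nuclear (SD, n = 5 each), with a log2 fold change of -0.16 ± 0.13 (SE) that did not pass (edgeR adjusted p = 0.36), passed with the replicate block (adjusted p = 0.0178) and was 0.017 with library totals alone. The pyruvate decarboxylase genes pdc1 and pdc3 went opposite ways, pdc1 higher by 0.45 ± 0.13 (edgeR adjusted p = 0.012) and pdc3 lower with -0.55 ± 0.12 (edgeR adjusted p = 0.00158).

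**Figure D5:**
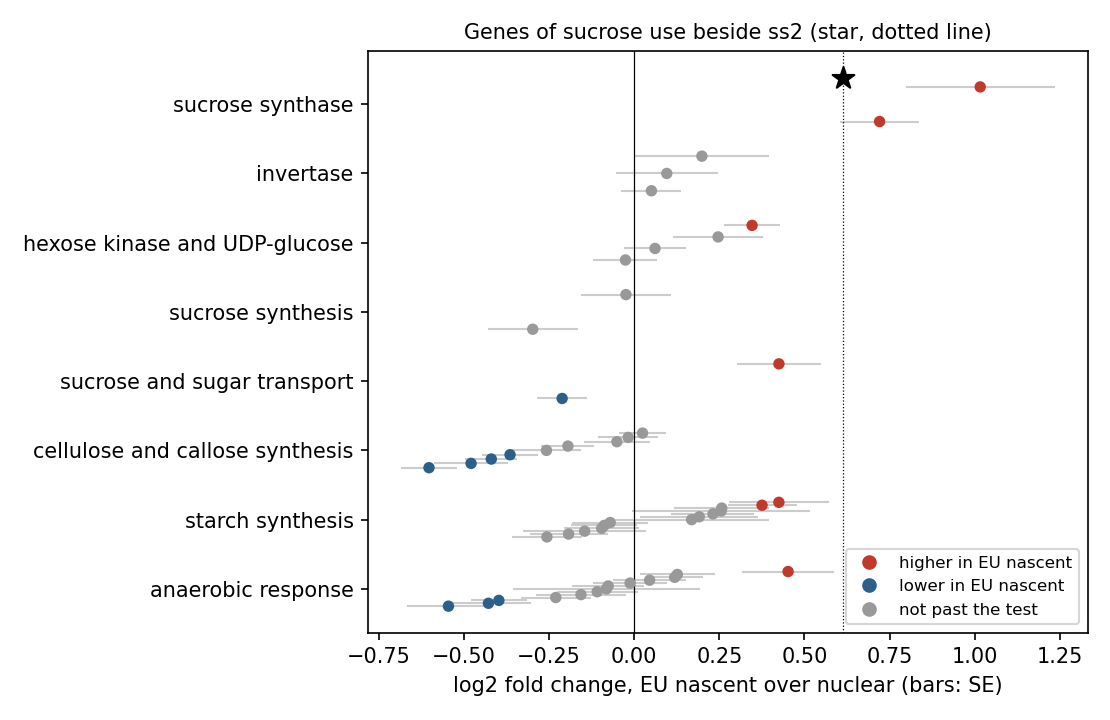
Log2 fold change of EU nascent over nuclear, with SE, for the tested genes of 8 lists around sucrose use. The star and dotted line mark ss2 at 0.61, red points were higher and blue points lower by edgeR's test, and grey points did not pass. Points at or beyond the dotted line are the sucrose synthase genes sh1 and sus2.

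Reads of ss2 were also set against those of single abundant list members within the same library, which needs no scaling. As ss2 was chosen for its ratio between the groups, it must gain on genes that changed little. These ratios are therefore a description, and how many of all genes separate in this way was not counted. There were 2.95 to 4.21 reads of ss2 for each read of adh1 in EU nascent, against 1.71 to 2.30 in nuclear. For each read of CesA-8 there were 5.90 to 7.66 reads of ss2 in EU nascent, against 3.79 to 5.49 in nuclear. For each read of incw1 there were 23.1 to 32.8 in EU nascent, against 19.5 to 21.4 in nuclear. The groups did not overlap in these 3 ratios, nor in those to phi1 (5.34 to 6.77 in EU nascent, 4.08 to 5.13 in nuclear) and sut2 (19.6 to 29.8 in EU nascent, 13.5 to 17.4 in nuclear). They overlapped in the ratios to spp1, AGPLS3 and sh1.

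Likeness to ss2 was measured as the SD, over the 10 libraries, of the log2 ratio of a gene's reads to those of ss2, among 5676 genes with a mean of at least 50 CPM. A low SD means a nearly fixed proportion to ss2 in every library. The median SD was 0.44. The 8 lowest had SDs of 0.071 to 0.120. They were bZip112 (0.071), LOC100279209 (0.076), LOC100285534, LOC100501850, LOC100281298, LOC100281566, LOC100304418 and LOC103637673, all protein-coding and all but bZip112 given by locus symbol. The level of bZip112, listed under a basic leucine zipper name, was 6.35% to 7.23% of that of ss2 in CPM in every library. It had 219 ± 24.3 CPM in EU nascent and 149 ± 27.3 CPM in nuclear. The log2 fold changes of the 8, from 0.46 to 0.75, lay around that of ss2, as the measure requires. The gene in 9th place was sh1, with an SD of 0.12. The next list gene was pdc1 in 114th place, and adh1, with 0.44, stood in 2896th. All libraries share the scaling by ss2 itself in this measure, so the SDs are a description.

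The genes that flank ss2 in the reference table did not share its level. On one side LOC100192837 had 2 reads over all EU nascent libraries and 1 over all nuclear ones, too few to test. On the other side LOC100383498 had 23.7 ± 5.19 CPM in EU nascent and 22.7 ± 3.20 CPM in nuclear (SD, n = 5 each), with a log2 fold change of 0.09 ± 0.15 (SE) that did not pass (edgeR adjusted p = 0.658). The gene beyond it, LOC103639036, had 193 ± 7.87 CPM in EU nascent and 157 ± 10.2 CPM in nuclear and was higher by 0.30 ± 0.07 (edgeR adjusted p = 0.00289). Both were below the 0.61 of ss2.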

How the data were processed

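Directional libraries with molecular identifiers were made from DNase-treated, ribosomal RNA-depleted nuclear RNA, per the labels' protocols. HTSeq, UMI-tools, SAMtools, deepTools, STAR 2.7.10b and 2 versions of Trimmomatic (0.39 and 0.36) are listed in the submitters' processing notes. The genome build, annotation release and strand setting are not given in the sources used here, so no coordinates, lengths or sequences are given. The deposited values are expected counts per gene, which is to say counts estimated by the authors without normalization. This unit was read from the values, most of which are whole and the rest fractions. The series table and the library files differed at 0 values. Counts were rounded before testing. Names and neighbours came from RefSeq's gene list for Zm-B73-REFERENCE-NAM-5.0, in which entries were found for 48127 identifiers (99.9%).

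The gene and the lists were chosen with earlier results of these data known. All genes were fitted with edgeR 4.0.16 in R 4.3.3 (quasi-likelihood F test, filterByExpr, TMM, Benjamini-Hochberg over all tested genes, 0.05), EU nascent over nuclear. SE is the absolute log2 fold change divided by the square root of F. The procedure was tested on simulated counts with 100 genes changed 1.5-fold and 100 changed 2-fold. It recovered 60% of the former and 97% of the latter, and 5.99% of its calls were false. Changes near 1.5-fold can thus be missed. Far fewer genes changed there than the 40.9% called in these data. P-values measure the spread between libraries that the labels call biological replicates. Likeness used an offset of 0.5 counts. Python 3.11.15, pandas 2.3.3 and scipy 1.17.1 were also used.

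Named genes were ss2, its relatives, for each list the most abundant member and those with the highest and lowest log2 fold change among members of at least 5 CPM, the 8 genes most like ss2, the 3 genes above and below it in EU nascent level, and the genes beside it in the table. LOC100281186, LOC111590387, grp1 and the marker genes were named after their values were seen.

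Deviations from group means of same-numbered libraries correlated across genes by 0.158 to 0.217, and libraries of other numbers by at most 0.113, so the numbers were taken to pair the libraries. This pairing comes from the values, since the labels only give the number. The planned fit was not blocked. Alternatives were a replicate block, DESeq2 1.42.0, limma-voom (limma 3.58.1), 3 other scalings, 2 other filters on low counts, and fits that left out 1 library each.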

Additional observations from a re-analysis of the deposited data

Results flagged for a closer look

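Outside ss2 and the 8 genes most like it, 4 of 54 groups of 5 values for the named genes had 1 library apart from the other 4 by more than Dixon's 95% value of 0.71, where chance gives about 1 in 20. The gene sut4 was high in EU nascent replicate 1, at 36.1 CPM (24.0 to 26.5 in the others). In nuclear replicate 1, IVR1 was high at 10.6 CPM (5.49 to 5.85 in the others) and SPP2 at 27.7 CPM (18.0 to 20.7). In nuclear replicate 2, CesA-1 had 262 CPM, against 218 to 227 CPM in the others.

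For ss2 and the 8 genes picked for likeness to it, the same gap is a description and no test, since these levels were used in choosing the genes, and the genes repeat the pattern of ss2. It was passed in 6 of their 18 groups. For ss2 this was EU nascent replicate 1, at 2499.5 CPM against 3251 to 3526 CPM in the other 4. In the same library bZip112 had 175.8 CPM (226 to 233 in the others), LOC100281298 had 99.9 CPM (131 to 139.9) and LOC103637673 had 205 CPM (258 to 277). In nuclear replicate 1, LOC100501850 had 106 CPM (122 to 128) and LOC100304418 had 61.8 CPM (74.0 to 78.4). What sets replicate 1 apart was not tested.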

How the results depend on the processing

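The log2 fold change of ss2 was above 0 under every alternative run. It moved by more than the spread between pairs only with library totals alone (0.79), and was 0.54 to 0.70 when single libraries were left out. With the replicate block it was 0.61 with an SE of 0.04. Library totals alone gave 7386 genes higher and 2765 lower (4165 and 4437 with TMM), and 15 list genes higher and 5 lower. The replicate block gave 14 list genes lower in place of 8, and it changed no call of a named gene other than the 4 given above (phi1, SPP2, sh2 and adh1). Leaving out single libraries gave 3403 to 4635 genes higher, 3898 to 4633 lower, 5 to 8 list genes higher and 7 to 11 lower. Library totals alone also gave calls to incw1, CesA-8 and phi1 and ended those of sut2 and LOC109941443 (-0.17, edgeR adjusted p = 0.162, against -0.34 with TMM). The sign turned only for named genes that did not pass edgeR's test. With library totals alone these were hex2 (0.15), spp1 (0.15) and adh1 (0.017), by the construction of that scaling, which moves the median of all genes. With the replicate block it was spp1 (0.0046). With single libraries left out they were hex2 (from -0.055 to 0.024 over the 10 fits), spp1 (-0.072 to 0.068), incw1 (-0.012 to 0.12) and LOC103645927 (-0.068 to 0.16), and incw1 also turned without replicate 1 in both groups (-0.016). The cause of these was not tested. Ranking per transcript length was not run. Of the 8 genes most like ss2, 6 were again among the 8 without nuclear replicate 1. Depth limits sus2, with as few as 4 counts in a library, more than ss2.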
